A study of Caenorhabditis elegans with 2 samples.

Results

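The genes described here are 8 genes of DNA replication in Caenorhabditis elegans: the 6 genes of the MCM helicase (mcm-2, mcm-3, mcm-4, mcm-5, mcm-6 and mcm-7), cdc-6 and pcn-1. They were named in a list by their role, with earlier results of these data known, and are 8 of the 19973 protein-coding genes annotated on the nuclear chromosomes. The data are peaks from chromatin immunoprecipitation and sequencing (ChIP-seq) of CEH-100, a homeobox protein. The worms were of strain RW12233, in which CRISPR was used to insert TY1, EGFP and 3xFLAG tags at the endogenous ceh-100 gene, and an antibody against GFP pulled down the tagged protein. Whole young adults, 64 hours old and synchronised as starved larvae after bleaching, were taken for 2 biological replicates of this single group. All animals carry the tag, there is no comparison between conditions, and tissues were not separated, so a peak does not say in which cells the protein was bound.

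The MCM proteins form the ring-shaped helicase that unwinds DNA at replication forks. CDC-6, together with the origin recognition complex and CDT-1, loads this ring onto DNA before S phase, and PCNA, the product of pcn-1, is the sliding clamp that holds DNA polymerases on their template. In young adult hermaphrodites DNA replication takes place in the dividing germ cells and in embryos. In many animals, genes of this group are transcribed under the control of E2F factors, which bind GC-rich sites in their promoters. In C. elegans EFL-1 and DPL-1 are of the E2F and DP families, and LIN-35 is the Rb-related protein that acts with them.

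A summit 100 to 300 bp upstream of the start was the arrangement that recurred at these genes, and 5 such places, not all of them, are printed. Each shows the summit and 50 bp on either side of it, from the RefSeq genome WBcel235, and is written 5′ to 3′ on the strand of the gene. Capitals mark matches, on either strand, to one of 4 E2F-type 8-mers (TTTCCCGC, TTTCGCGC, TTTGCCGC, TTTGGCGC) or to the 7-mer TTCGCGC, which lies inside TTTCGCGC. The 7-mer was picked after these sequences had been read. In the windows of mcm-2 and pcn-1 the capitals mark this 7-mer alone, and neither window holds an 8-mer. The windows of mcm-2 (chrII:12006839-12006939, minus strand) and pcn-1 (chrIV:4049644-4049744, minus strand) are under peaks that passed the authors' threshold. Those of mcm-3 (chrV:15059697-15059797, minus strand), mcm-7 (chrV:4346944-4347044, plus strand) and mcm-5 (chrIII:4291392-4291492, minus strand) are under weaker summits that did not. Peaks of mcm-4 and cdc-6 in the same stretch passed the threshold too, and their windows are not printed. The window of mcm-4 holds TTTCGCGC and that of cdc-6 holds none of these matches, so the printed windows leave out the window without a match.
mcm-2: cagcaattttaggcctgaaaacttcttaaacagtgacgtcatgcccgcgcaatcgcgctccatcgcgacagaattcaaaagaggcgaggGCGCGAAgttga
pcn-1: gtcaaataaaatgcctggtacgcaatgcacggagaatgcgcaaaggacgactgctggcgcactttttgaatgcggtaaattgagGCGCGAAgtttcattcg
mcm-3: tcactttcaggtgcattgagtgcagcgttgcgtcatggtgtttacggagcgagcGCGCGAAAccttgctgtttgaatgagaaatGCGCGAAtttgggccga
mcm-7: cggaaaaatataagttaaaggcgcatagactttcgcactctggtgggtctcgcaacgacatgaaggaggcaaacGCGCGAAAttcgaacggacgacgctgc
mcm-5: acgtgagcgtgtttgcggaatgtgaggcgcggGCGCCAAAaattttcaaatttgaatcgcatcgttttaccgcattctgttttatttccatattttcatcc

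Peaks were read from the authors' lists on the ce11 assembly. The joint conservative set, reproducible between both replicates, holds 1707 peaks, and another joint thresholded set holds 1911. Replicates 1 and 2 have thresholded lists of their own with 1182 and 1360 peaks. Ranked lists hold the weaker peaks as well, 20849 in the joint list of the conservative set, 25241 in replicate 1 and 17118 in replicate 2. The signal of a peak is the authors' enrichment value, which has no unit and is not scaled between lists. Its rank within a list is therefore given beside it, as a percent counted from the strongest peak. The irreproducible discovery rate (IDR) given for a peak is the global one. It is a rate over all peaks ranked at least as consistently, not a probability for that peak alone. The authors' thresholded lists hold peaks at an IDR of at most 0.01. Library depth is unknown, since peak lists carry no number of reads, and no counting error can be attached to a signal. Input or control libraries were not analysed here.

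CEH-100 peaks lay at 4 of the 8 genes: mcm-2 and mcm-4 of the helicase, the loader gene cdc-6 and the clamp gene pcn-1. The rule for a peak at a gene was a distance of at most 1000 bp between the summit and one of the gene's annotated starts. In the conservative set 1452 of all 19973 protein-coding genes met this rule, which is 7.27%. The same 4 genes had a peak in the other joint thresholded set, where 8.04% of all genes did. They had one in the list of replicate 1 (5.43% of all genes) and in that of replicate 2 (6.46% of all genes). The 4 genes without a thresholded peak were mcm-3, mcm-5, mcm-6 and mcm-7, and none of them had one in any of the 4 thresholded lists. In the whole joint ranked list 7 of the 8 genes had a summit, all but mcm-5, beside 34.4% of all genes. Because of how the genes were listed, their count is a description and was not tested.

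**Figure D1:**
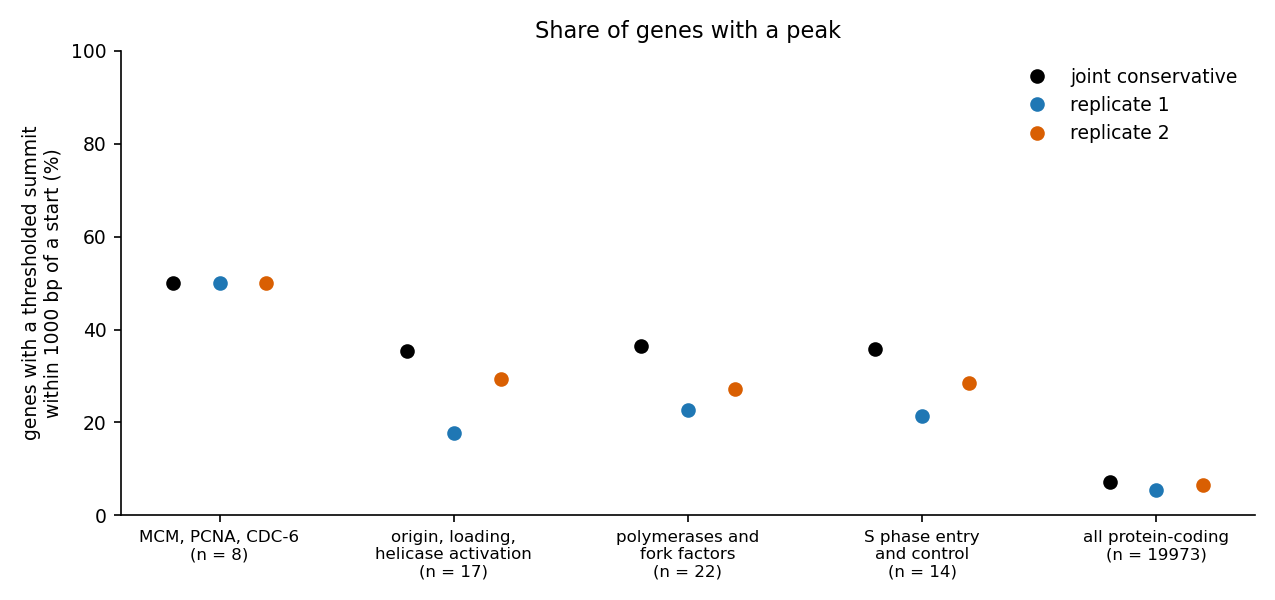
Percent of genes (y axis) with a thresholded summit within 1000 bp of a start, for the 8 genes of helicase, loader and clamp, 3 further lists of replication genes and all protein-coding genes (x axis), in the joint conservative set and in each replicate's thresholded list. The 8 genes stand at 50% in all 3 lists and all protein-coding genes at 7.27%, 5.43% and 6.46%.

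Among the helicase genes, mcm-2 had the strongest peak. It is WBGene00003154, on the minus strand of chromosome II from 12001509 to 12006625, with 2 annotated starts 17 bp apart. The conservative peak spans 12006808 to 12006949, and its summit lies 264 bp upstream of the outer start, in intergenic sequence with no start of another protein-coding gene within 1000 bp. Its signal was 225 in the joint set, 82.6 in replicate 1 and 152 in replicate 2. Those signals ranked at 24.1%, 52.5% and 22.6% from the top of their lists, so the peak stood in the upper part of the list in replicate 2 and near the middle in replicate 1. The IDR was 2.26e-05 in the joint list, 0.000242 in replicate 1 and 1.09e-05 in replicate 2. A second summit, in the intron 255 bp downstream of the inner start, had a signal of 64.5 and an IDR of 0.0463 and did not pass the threshold.

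At mcm-4 there were 3 conservative peaks, more than at any other of the 8 genes, with summits 165 and 366 bp upstream of the outer start and 389 bp downstream of the inner one. mcm-4 is WBGene00003156, on the minus strand of chromosome I from 2318291 to 2321817, with an outer start and an inner start at 2318651 near its 3′ end. The strongest peak, from 2321928 to 2322006, has its summit 165 bp upstream of the outer start, in intergenic sequence. Its signal was 171 in the joint set, 81.2 in replicate 1 and 94.1 in replicate 2, ranking at 35.2%, 53.9% and 41.9% from the top. It thus stood in the upper part of the joint set and near the middle of both replicates' lists. The IDR was 6.02e-05, 0.000419 and 0.000256 in the same order.

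Both other peaks at mcm-4 are placed less simply. The peak from 2318104 to 2318419 has its summit 389 bp downstream of the inner start, past the 3′ end of mcm-4 and in the 3′ untranslated region of ekl-7, with a signal of 91.7 and rank 1478 of 1707. Replicate 1 had a thresholded peak there with a signal of 57.8, while replicate 2 had a ranked summit alone, with a signal of 51.3 and an IDR of 0.445. A further peak, in a coding exon of mcm-4, was thresholded in replicate 1 and in the other joint set, but not in the conservative set. Its summit lay 164 bp downstream of the inner start in replicate 1 (signal 22.7, IDR 0.00263). In the other joint set it lay 186 bp downstream (signal 34.3, IDR 0.00466). The peak from 2322025 to 2322340 has its summit 366 bp upstream of the outer start, in a coding exon of Y39G10AR.32, whose own start is nearer at 122 bp. Its signal was 2.46, rank 1703 of 1707, although its IDR was 5.97e-05, and neither replicate's own list had a summit at that place. The interval of this peak overlaps those of the strongest mcm-4 peak in both replicates, and the joint IDR of that peak, 6.02e-05, was close to its own. So 2 of the 3 peaks counted at mcm-4 rest on its inner start or lie nearer to another gene, and the count of genes with a peak does not depend on them.

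The other helicase genes, mcm-3, mcm-7, mcm-6 and mcm-5, had no thresholded peak within 1000 bp. In the joint ranked list of the conservative set, mcm-3 came closest of these to the threshold. It is WBGene00003155, on the minus strand of chromosome V from 15056719 to 15059599. A joint ranked summit lay 148 bp upstream of its start with a signal of 71.4, at 12.7% from the top of that list, and an IDR of 0.0284. In the authors' other ranked list the same summit had an IDR of 0.204, and there a summit of mcm-7, 959 bp downstream of its start, came closer with 0.0751. The start of C25D7.15, on the other strand, is nearer to this summit, at 61 bp. Replicate 2 had a summit 171 bp upstream (signal 40.4, IDR 0.0866), whereas the summit of replicate 1 lay 970 bp downstream in a coding exon (signal 33.4, IDR 0.663). The replicates therefore did not place a summit at the same position. At the authors' threshold of 0.01 in the joint list of the conservative set, the 8 genes divide between cdc-6, with a joint IDR of 0.000736 inside it, and mcm-3, with 0.0284 outside it.

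At mcm-7 (WBGene00003159, plus strand of chromosome V from 4347166 to 4349768) a weak upstream summit recurred in both replicates. It lay 172 bp upstream of the start in the joint ranked list, 166 bp upstream in replicate 1 and 160 bp upstream in replicate 2. The signals were 65.1, 25.9 and 35.1, and the IDR values were 0.265, 0.885 and 0.404, all far above the threshold. A joint ranked summit in a coding exon, 959 bp downstream, was as strong, with a signal of 66.1 and an IDR of 0.0995. The nearest conservative summit was 100619 bp away. The starts of hpo-18 and figl-1, at 569 and 995 bp from the upstream summit, are farther than that of mcm-7.

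At mcm-6 and mcm-5, both on chromosome III, no summit within 1000 bp had a signal above 22.9 in any list. mcm-6 (WBGene00003158, plus strand, 9794367 to 9798644) had joint ranked summits 224 and 568 bp downstream of a start, both in its coding exons, with signals of 12.9 and 9.42 and an IDR of 0.798. Neither replicate's list had a summit within 1000 bp of it. mcm-5 (WBGene00003157, minus strand, 4288264 to 4291266) had none in the joint ranked list, the nearest being 2245 bp away. In the authors' other ranked list a summit lay 176 bp upstream of mcm-5, with a signal of 22.9 and an IDR of 0.800. The nearest conservative summits were 11583 bp from mcm-6, 9107 bp from mcm-5 and 22890 bp from mcm-3, and their signals of 309, 211 and 115 belong to peaks of other places. Within 1 complex, the 6 helicase genes thus ranged from a signal of 225 down to no summit in the joint ranked list of the conservative set. An absent peak says that the lists hold none there, and with unknown depth it does not show that the protein was not bound.

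cdc-6, whose product loads the helicase, had the weakest peak of the 4 genes and shared it with a neighbour. It is WBGene00000382, on the minus strand of chromosome I from 4268070 to 4270287. The peak from 4270510 to 4270625 has its summit 279 bp upstream of cdc-6 and 100 bp upstream of acin-1 (WBGene00016601), which starts at 4270666 on the plus strand and is transcribed away from cdc-6. The start of acin-1 is the nearer one, and the lists do not say to which gene the peak belongs. Its signal was 144 in the joint set, 52.2 in replicate 1 and 92.5 in replicate 2. In replicate 1 it ranked 1109 of 1182, at 93.8% from the top, close to the end of the list, while in replicate 2 it ranked at 42.9% and in the joint set at 45.3%. The IDR was 0.00527 in replicate 1 and 0.000115 in replicate 2.

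pcn-1, the gene of the clamp, had the strongest peak of all 8 genes in the joint set and in replicate 1, while in replicate 2 that of mcm-2 was stronger. It is WBGene00003955, on the minus strand of chromosome IV from 4047937 to 4049448. The peak from 4049666 to 4049745 has its summit 246 bp upstream of the single annotated start, in intergenic sequence, and the next start, that of wrt-5, is 880 bp from the summit. Its signal was 249 in the joint set, 112 in replicate 1 and 122 in replicate 2. It ranked at 21.6%, 34.2% and 29.0% from the top, in the upper part of every list, and the IDR was 1.07e-05, 4.40e-05 and 4.86e-05. A second joint ranked summit, in a coding exon 825 bp downstream, had a signal of 9.26 and an IDR of 0.798.

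**Figure D2:**
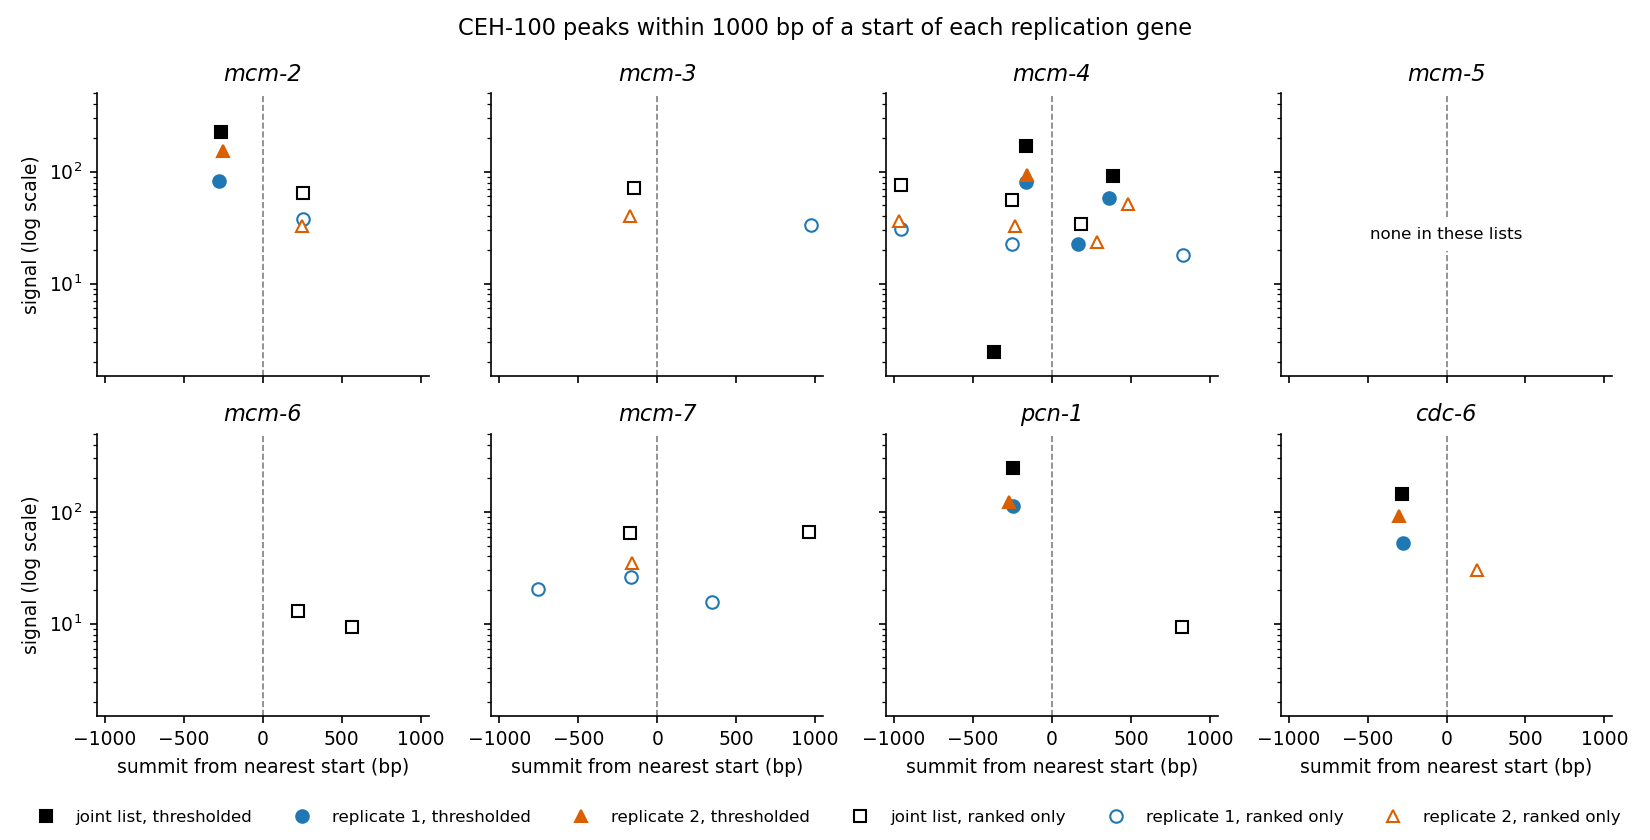
Signal (y axis, log scale, no unit) against the distance of the summit from the nearest annotated start in bp (x axis, negative upstream) for each of the 8 genes, in the joint list and in each replicate, with filled symbols for peaks that passed the threshold and open symbols for ranked peaks. Filled symbols stand upstream of mcm-2, mcm-4, pcn-1 and cdc-6, and at mcm-4 also downstream of its inner start. mcm-5 has no symbol because its single summit is in the authors' other ranked list.

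Over the joint set the order of the 4 genes by signal was pcn-1 with 249, mcm-2 with 225, mcm-4 with 171 and cdc-6 with 144. The order was pcn-1, mcm-2, mcm-4 and cdc-6 in replicate 1, with mcm-2 and mcm-4 at 82.6 and 81.2, and mcm-2, pcn-1, mcm-4 and cdc-6 in replicate 2. Thus pcn-1 and mcm-2 changed places between replicates, and mcm-4 and cdc-6 were close in replicate 2, at 94.1 and 92.5. The signal in replicate 2 was 1.09 times that in replicate 1 at pcn-1, 1.16 times at mcm-4, 1.77 times at cdc-6 and 1.85 times at mcm-2. Over the 904 pairs of overlapping thresholded peaks of both replicates the median of this ratio was 1.05, with quartiles of 0.891 and 1.24. The ratio at mcm-2 was exceeded by 3.43% of those pairs and that at cdc-6 by 3.76%, so at these genes the replicates differed more than at most shared peaks. The summits of the replicates lay 8 bp apart at mcm-4, 23 bp at mcm-2 and at cdc-6, and 27 bp at pcn-1, less than the 200 to 800 bp fragments of the sheared chromatin.

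**Figure D3:**
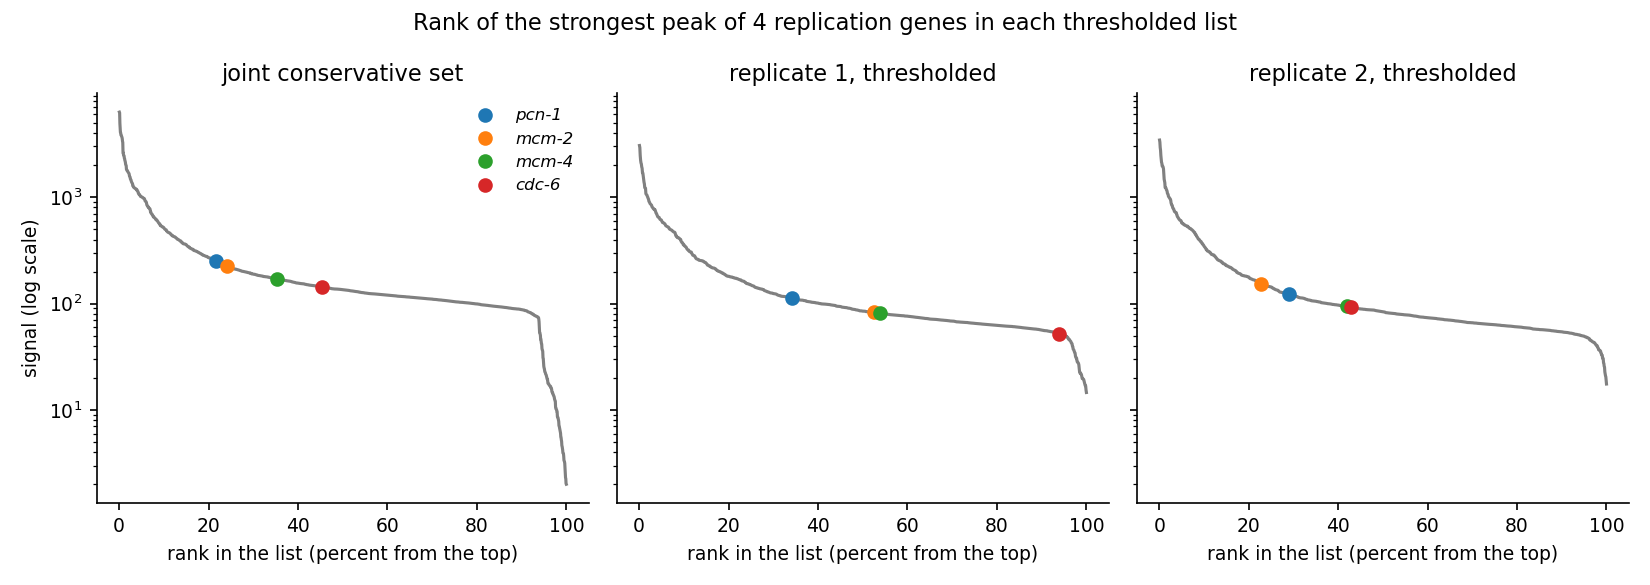
Signal (y axis, log scale, no unit) of every peak in the joint conservative set and in each replicate's thresholded list, in order of rank as a percent from the top (x axis), with the strongest peak of pcn-1, mcm-2, mcm-4 and cdc-6 marked. The peak of cdc-6 moves from 45.3% in the joint set to 93.8% in replicate 1 and 42.9% in replicate 2, while that of pcn-1 stays between 21.6% and 34.2%.

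The signals of the 4 genes were ordinary for genes with a peak. They ran from 144 to 249 with a median of 198, while over all 1452 genes with a conservative peak the median was 156, with quartiles of 115 and 270 and a highest value of 6296. Their place was alike: each of the 4 strongest summits lay between 279 and 165 bp upstream of the start. Over all 1452 genes the median offset was 204 bp upstream, 1188 (81.8%) lay upstream, and 516 (35.5%) lay 100 to 300 bp upstream. Among all 19973 genes, 601 (3.01%) had a conservative summit in that upstream stretch. In the joint ranked list 6 of the 8 genes had one there, the 4 above with mcm-3 and mcm-7, beside 2154 of all genes (10.8%). This stretch was chosen after the summits had been seen.

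**Figure D4:**
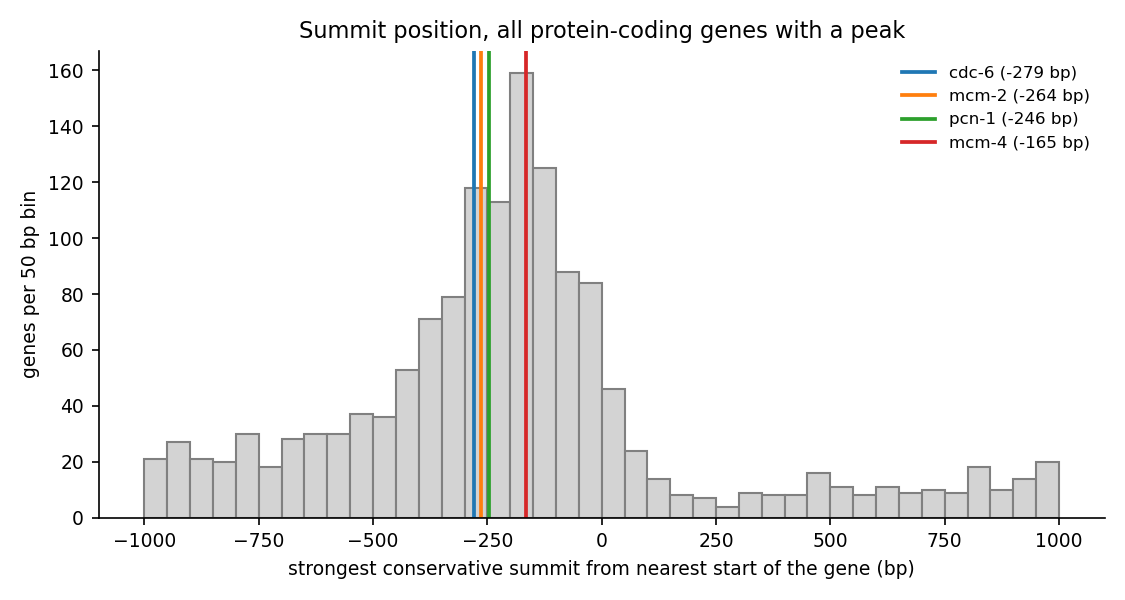
Number of protein-coding genes per 50 bp bin (y axis) by the distance of their strongest conservative summit from the nearest start of the gene in bp (x axis, negative upstream), for the 1452 genes with such a peak. Coloured lines mark cdc-6, mcm-2, pcn-1 and mcm-4, which stand in the upstream rise of the histogram, between -279 and -165 bp.

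The strongest peaks at these genes were also narrow. They were 79 bp wide at mcm-4, 80 bp at pcn-1, 116 bp at cdc-6 and 142 bp at mcm-2. Of the 1685 nuclear conservative peaks, 1118 (66.4%) were exactly 316 bp wide and 477 (28.3%) were narrower, and the width of 79 bp at mcm-4 is the smallest in the set. In replicate 1 the same peaks at all 4 genes had the width of 316 bp, so the narrow interval is a property of the joint list and, at mcm-2 and cdc-6 with 92 and 71 bp, of replicate 2. The start of another protein-coding gene was nearer to the strongest summit at 1 of the 4 genes, cdc-6, and at 438 of all 1452 genes with a peak (30.2%).

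The sequence under the summits held no match to the homeodomain-type 6-mer TAATTA. Both strands were searched, from 50 bp before to 50 bp after each summit. None of the 4 windows held TAATTA, which 1.78% of the 1685 nuclear conservative windows held. The 4-mer TAAT, its core, was in the windows of cdc-6 and mcm-4, and in 39.5% of all windows. One of the 4 E2F-type 8-mers was in the window of mcm-4, as TTTCGCGC, and in 6.17% of all windows. The 7-mer TTCGCGC was picked after these sequences had been read, so its counts only describe them. It was in the windows of mcm-2, mcm-4 and pcn-1 and in 4.04% of all windows. The windows of mcm-2 and mcm-4 were 48.5% A and T, that of pcn-1 51.5% and that of cdc-6 61.4%, beside a median of 52.5% over all windows (quartiles 46.5% and 58.4%).

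In the 300 bp upstream of the outermost start, E2F-type matches were found both at some of the 8 genes with a thresholded peak and at those without. An 8-mer was present at 6 of the 8 genes, namely mcm-3, mcm-4, mcm-5, mcm-6, mcm-7 and pcn-1. The same stretch held one at 995 of all 19973 genes (4.98%) and at 139 of the 1452 genes with a conservative peak (9.57%). It also held one at 20 of the 53 other replication genes counted below, so such matches were not particular to the 8 genes. TTTCGCGC itself was present at 5 of the 8 genes, at 7 of those 53, at 1.29% of all genes and at 4.20% of genes with a peak. With the 7-mer, mcm-2 joined these 5 genes, beside 12 of the 53, 2.08% of all genes and 6.34% of genes with a peak. cdc-6 had neither, and it was the single gene of the 8 with TAATTA there, which 17.4% of all genes had. Of the 6 genes with an 8-mer, mcm-4 and pcn-1 had a thresholded peak and mcm-3, mcm-5, mcm-6 and mcm-7 did not. This stretch was added after the data were seen, and a match is a run of letters, not a shown binding site.

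The matches lay near the summits at several genes without being centred on them. At mcm-3 the 8-mer begins 144 bp before the start, and its middle is 7.5 bp from the ranked summit. At mcm-5 TTTGGCGC is 14.5 bp from the summit of the other ranked list, and at mcm-7 TTTCGCGC is 27.5 bp from the ranked summit. At mcm-4 the distance was 37.5 bp, and at pcn-1 it was 61.5 bp for the 8-mer and 37 bp for a further 7-mer. At mcm-2 the 7-mer is 42 bp from the summit. These distances are smaller than the sheared fragments, and mcm-6, with an 8-mer at 247 and another at 120 bp before its start, had no summit there. In the joint lists alone, the weak summits of mcm-3, mcm-5 and mcm-7 were nearer to a match than the thresholded ones of mcm-2, mcm-4 and pcn-1. Summits of the 4 genes with a peak lay 8 to 27 bp apart between replicates. The order of these distances did not hold in replicate 2. There the mcm-3 summit was at -171 bp from the start and its 8-mer at -140.5 bp. The mcm-2 summit was at -251 bp with its 7-mer at -222 bp, and the mcm-4 summit at -157 bp with its 8-mer at -127.5 bp. So mcm-3 was not nearer to a match than these in replicate 2, and replicate 1 had no upstream summit at mcm-3.

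**Figure D5:**
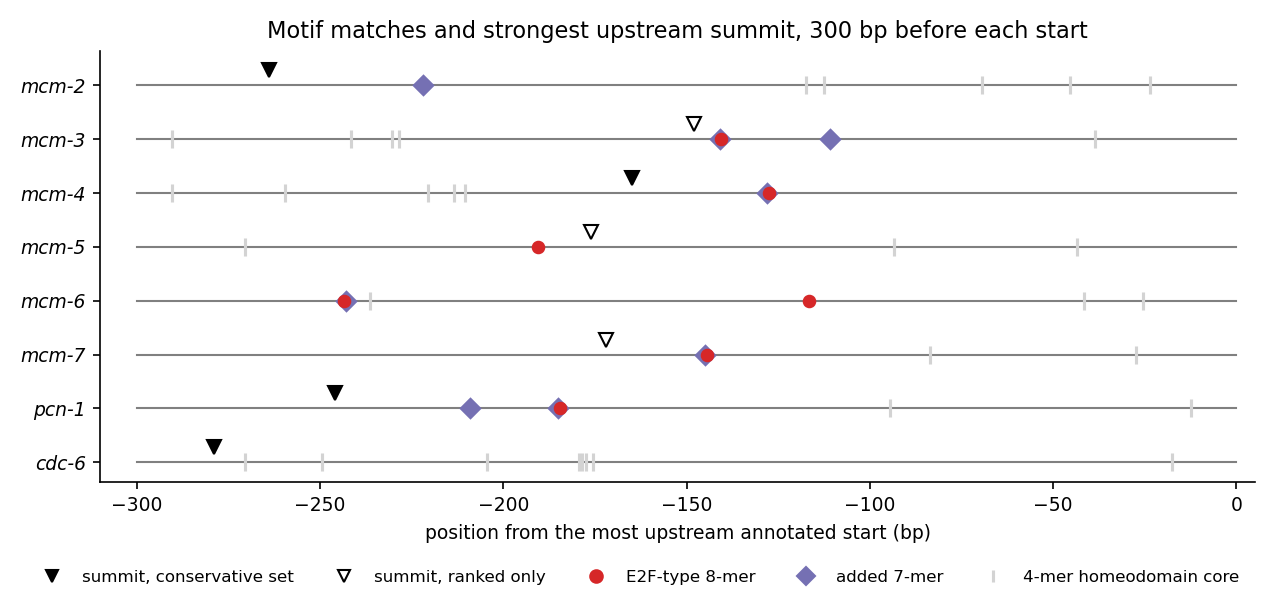
Positions, in bp from the most upstream annotated start (x axis), of E2F-type 8-mers, of the 7-mer chosen after the data were seen, of the 4-mer homeodomain core and of the strongest upstream summit within 300 bp, for the 8 genes in rows. E2F-type 8-mers stand in 6 rows, and the filled summits of mcm-2, mcm-4, pcn-1 and cdc-6 all lie farther from the start than the nearest coloured match of their row, where it has one.

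Other genes of replication were counted in 3 lists, chosen by role and with earlier results of these data known. Of 53 genes matched to the annotation, 19 (35.8%) had a conservative peak within 1000 bp, beside 7.27% of all genes. Their strongest signals ranged from 96.5 to 2605 with a median of 189, so the 198 of the 4 genes above was near that of the wider group. In 10 of the 19 the start of another protein-coding gene was nearer, beside 438 of all 1452 genes with a peak (30.2%). A thresholded peak in both replicates was found at 11 of the 19. In the list of replicate 1, 11 of 53 had a peak (5.43% of all genes), and in that of replicate 2, 15 of 53 (6.46% of all genes). In the stretch 100 to 300 bp upstream, 11 of 53 had a conservative summit (3.01% of all genes) and 22 of 53 a joint ranked one (10.8% of all genes).

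Of 17 genes for origin recognition, loading and helicase activation, 6 had a peak (35.3%). The strongest was at mcm-10, an initiation factor that binds the MCM helicase, with a signal of 999.6 and a summit 312 bp upstream, though teg-1 starts nearer, at 203 bp. psf-2, for a subunit of the GINS complex that joins the active helicase, had 256, with zipt-1 nearer. ctf-4, for an adaptor between helicase and polymerase, had 200.9, with eef-1G nearer at 20 bp, and psf-3, another GINS gene, had 189 at a summit 986 bp downstream, with icd-2 nearer. sld-2 and gmn-1 had peaks below these, that of sld-2 with larp-5 nearer at 98 bp. None of orc-1, orc-2, orc-3, orc-4, orc-5 and cdt-1, which act with cdc-6 in loading, had a peak.

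Of 22 genes for polymerases and fork factors, 8 had a peak (36.4%). rpa-2, for a subunit of the protein that coats single-stranded DNA, had 1738 at 663 bp upstream, and pola-1, for the catalytic subunit of DNA polymerase alpha, had 1351 at 139 bp upstream. tim-1, related to the fork protection factor Timeless, had 413 with Y75B8A.23 nearer. pole-1, for the catalytic subunit of DNA polymerase epsilon, had 207 at 192 bp upstream. rfc-3 and rfc-4, for subunits of the loader of PCNA, pri-1 and lig-1 were the other 4, with F58A4.6 nearer at pri-1 and C29A12.1 nearer at lig-1. The ribonucleotide reductase genes rnr-1 and rnr-2 had none. Thus pola-1 and rpa-2 had signals over 5 times that of pcn-1 in the same list, and they act beside it at the fork.

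Of 14 genes for S phase entry and its control, 5 had a peak (35.7%). lin-35, of the Rb family, had the strongest of all these genes, 2605 at 189 bp upstream. cul-4 and cdt-2, for parts of a ubiquitin ligase that limits CDT-1, had 187 and 133, the latter with T01C3.2 nearer. cye-1, for cyclin E, had 136 with pqn-21 nearer, and efl-1, of the E2F family, had 99.9. dpl-1 and efl-2 had none.

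The conservative peaks most like those of the 4 genes in signal, by the smallest difference in log2 signal within that single list, lay at unrelated places. For pcn-1 they were the peaks of syp-4 and H27M09.5 (249.0 in 1 shared peak) and of swsn-3 (249.3). For mcm-2 they were those of tbc-9 (225.4) and of mdt-26 with ift-43 (226.1). For mcm-4 they were the peak near Y71H2AM.20, cox-6B and nduc-2 (171.2) and that of Y57G11C.5 (171.0), and for cdc-6 those of hda-11 with C35A5.8 (144.0) and of hrpu-2 (144.0). These 2 nearest peaks per gene show a like value in 1 list and nothing beyond it.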

How the data were processed

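The samples were 2 biological replicates of 1 group. The authors mapped reads to ce11, per the labels. Which aligner and which peak caller they ran is not given in the sources used here. The signal of each peak and, in ranked lists, the −log10 of its global IDR are the authors' values in the deposited lists. No read counts were given, so the depth is unknown. Chromosome lengths of ce11 equal those of WBcel235, from which Ensembl release 115 gene starts and the sequences were taken. Members and gene lists were chosen with earlier results of these data known. cdc-45 and sld-3 were not matched to the annotation, and pold-1 and pold-2 were matched by RefSeq locus tag. Named genes were all members, other genes nearer to a member's summit, up to 4 genes of highest signal per list, and the genes at the 2 peaks nearest in log2 signal to each member's. Genes named beyond this rule were chosen after their values were seen. The replicates are called biological by the labels. No statistical test was made. Replicate peaks were paired by an overlap of at least 1 bp. Alternatives were other windows, lists, assignments and motif windows. Scripts ran under Python 3.11.15 with pandas 2.3.3 and numpy 2.4.6. Figures came from matplotlib 3.10.9. On simulated peaks, 200 of 200 summits were placed as planted.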

Additional observations from a re-analysis of the deposited data

How the results depend on the processing

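The count of 4 of 8 genes with a peak was 1 with a 200 bp window (mcm-4, 2.91% of all genes). With the whole joint ranked list it was 7 (34.4% of all genes). It was 3 when each summit went to its nearest start, which leaves out cdc-6 (5.24% of all genes), and 4 without either replicate. It was 6 for ranked summits 100 to 300 bp upstream (10.8% of all genes). It stayed at 4 under the other alternatives, where the share of all genes ran from 3.01% to 9.96%. The count of 19 of the 53 other replication genes was 8 with a 200 bp window (2.91% of all genes) and 40 with the whole ranked list (34.4%). It was 12 with conservative peaks that overlap thresholded peaks of both replicates (4.55% of all genes). It was 10 with the nearest start (5.24%) and 11 for conservative summits 100 to 300 bp upstream (3.01%). With a single replicate's list the count was 11 in replicate 1 (5.43% of all genes) and 15 in replicate 2 (6.46%). The rank percent in single replicates ran from 42.9 to 93.8 for cdc-6, 22.6 to 52.5 for mcm-2, 41.9 to 53.9 for mcm-4 and 29.0 to 34.2 for pcn-1. An E2F-type 8-mer, in 1 of 4 summit windows, was in 0 with 25 bp on either side of the summit, 2 with 100 bp, 2 in the 300 bp upstream, and the 7-mer was in 3. TAATTA was in 0 with either width and in 1 in the 300 bp upstream. The cause of these differences was not tested beyond the alternatives' own construction. The upstream stretches and the 7-mer were added after the data were seen. No paired analysis was possible because all samples belong to 1 group. Depth is unknown and control signal was not analysed here, so weak summits and absent ones cannot be told apart from limits of detection.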
